A study of Mus musculus with 7 samples.

Results

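The genes of the unfolded protein response and the integrated stress response were examined in mouse retinal pigment epithelium (RPE), as the 10 genes *Hspa5*, *Hsp90b1*, *Atf6*, *Ern1*, *Eif2ak3*, *Xbp1*, *Atf4*, *Ddit3*, *Trib3* and *Asns*. They were taken by name from the 52740 identifiers of the count table, and all 10 were among the 16990 genes tested. Messenger RNA was sequenced from RPE of 4 WT mice (females F1, F2 and F3 and male M1) and 3 *LC3b*-/- mice (females F1 and F3 and male M), with 1 library per mouse, and all mice were labelled as 24 months old. *LC3b*-/- mice carried a targeted germline null allele of *Map1lc3b*, the gene of LC3b (strain B6;129P2-Map1lc3b tm1Mrab/J), and WT mice were C57BL6/J from the same supplier. The mouse names also hold a number of unstated meaning that no WT mouse shares with an *LC3b*-/- mouse. Strain background, whatever that number marks and the deletion cannot be told apart in this design. RPE sheets were shaken loose with trypsin from eyecups that had lost cornea, ciliary body, lens and neural retina, after a hyaluronidase step. Each library is a bulk sample, so fewer cells of a type and less RNA per cell cannot be told apart.

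When unfolded proteins build up in the endoplasmic reticulum (ER), the chaperone BiP (*Hspa5*) leaves the sensors IRE1 (*Ern1*), PERK (*Eif2ak3*) and ATF6, which it otherwise holds inactive. IRE1 splices *Xbp1* mRNA, ATF6 is cut to a transcription factor in the Golgi, and both raise transcription of ER chaperones and of degradation factors. PERK phosphorylates the initiation factor eIF2, which lowers general translation and favours translation of *Atf4*. The same step is reached from other kinases on amino acid shortage, viral RNA or haem shortage, which is why this arm is called the integrated stress response. ATF4 in turn raises *Ddit3* (CHOP), *Trib3* and *Asns*. RPE is a secretory and phagocytic epithelium that degrades photoreceptor outer segment tips each day, and LC3b takes part in that degradation. A gene count reports mRNA of all splice forms together, so neither *Xbp1* splicing, ATF6 cleavage nor eIF2 phosphorylation was measured.

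Library totals ran from 24495952 to 35616134 counts. The targeted gene *Map1lc3b* had 104 to 130 CPM (counts per 1000000 counts of the library, scaled with TMM factors) in WT and 6.76 to 8.33 CPM in *LC3b*-/-, so each library matched its genotype label. Its log2 fold change was -3.98 ± 0.15 (SE; edgeR, adjusted p = 1.86e-04). The sex labels were taken as given. Over all genes, edgeR called 40 genes (0.235% of those tested), a call being an adjusted p below 0.05 together with a 1.5-fold or larger change, and DESeq2 called 1831 (11.5% of the 15976 with an adjusted p).

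No cell type marker was called by edgeR, but the summed levels of 3 marker lists did not overlap between the groups. The summed level of 10 RPE markers ran from 31000 to 48800 CPM in WT and from 13700 to 29000 CPM in *LC3b*-/-, and 9 of the 10 had a negative fold change. All 9 markers of ocular surface epithelium, mostly keratins, had a positive one, with sums of 9.14 to 2400 CPM in WT and 3280 to 23200 CPM in *LC3b*-/-. WT F3 held the lowest keratin sum and *LC3b*-/- F1 the highest. The 6 endothelial markers summed to 177 to 554 CPM in WT and 659 to 739 CPM in *LC3b*-/-. Photoreceptor markers ran from 274 to 21000 CPM in WT and from 96.4 to 7080 CPM in *LC3b*-/-, fibroblast markers from 328 to 1370 CPM and 836 to 1840 CPM, and macrophage and microglia markers from 375 to 510 CPM and 241 to 460 CPM. B and plasma cell markers, of interest because plasma cells make much *Xbp1*, summed to 6.96 to 84.2 CPM in WT and 36.5 to 205 CPM in *LC3b*-/-. Müller glia (2570 to 2880 CPM and 2180 to 3200 CPM), erythrocyte (126 to 384 CPM and 152 to 462 CPM) and skeletal muscle markers (6.46 to 25.8 CPM and 8.85 to 27.3 CPM) overlapped between WT and *LC3b*-/-. Lens markers summed to at most 0.732 CPM. The 5 neutrophil markers summed to 1.24 to 3.56 CPM in WT and 1.0 to 8.5 CPM in *LC3b*-/-, and of these *Ly6g* and *Mpo* had at most 3 counts in any library. The part of these marker levels in the results that follow was not tested, and results are also given without WT F3 and *LC3b*-/- F1.

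None of the 10 genes was called different between *LC3b*-/- and WT (0.235% of all genes were), and they shared no direction: 7 had a positive and 3 a negative log2 fold change. The positive ones were *Asns* (0.69), *Xbp1* (0.37), *Atf4* (0.26), *Ern1* (0.18), *Atf6* (0.13), *Hspa5* (0.07) and *Ddit3* (0.04). The negative ones were *Trib3* (-0.78), *Eif2ak3* (-0.45) and *Hsp90b1* (-0.26). The median over the 10 was 0.11, against 0.01 over all genes tested, where 51.2% had a positive value. DESeq2 and limma's voom also called 0 of the 10, where voom called 0.73% of all genes. At an unadjusted p under 0.05 there were 2 genes in edgeR (*Xbp1* and *Eif2ak3*), 2 in DESeq2 and 1 in voom. Over all genes tested, 24.1% reached that level in edgeR, 28.0% in DESeq2 and 30.7% in voom. In 2 genes the groups did not overlap, *Ern1* with every *LC3b*-/- library above every WT library and *Eif2ak3* with every one below, where 22.3% of all genes tested had groups without overlap.

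**Figure D1:**
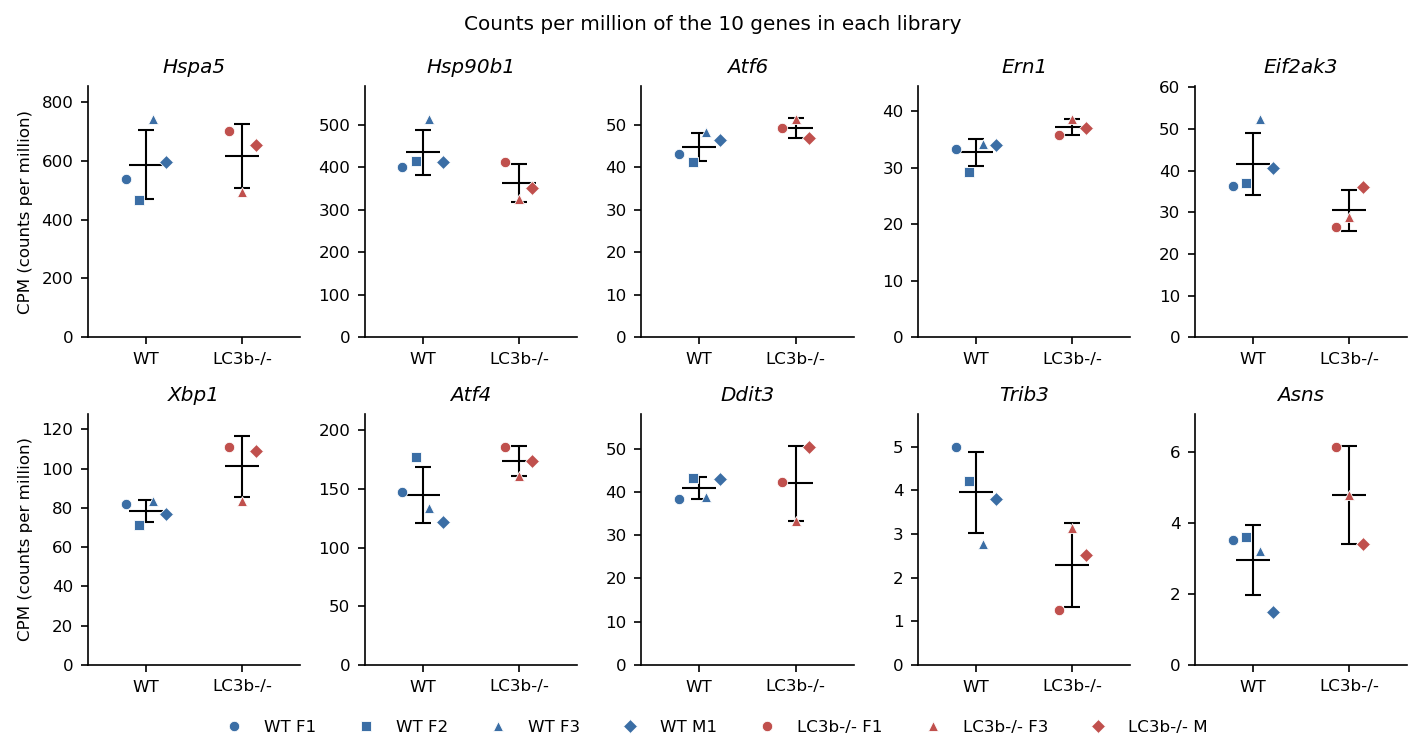
CPM (vertical axis, from 0) of each of the 10 genes in 4 WT and 3 LC3b-/- libraries, with 1 symbol per library and the mean ± SD as a bar. The groups overlap in 8 of the 10 genes, and only *Ern1* (higher) and *Eif2ak3* (lower) separate.

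The ER chaperones came first in abundance. *Hspa5* (ENSMUSG00000026864, chromosome 2, 34661982 to 34668880 of GRCm39) encodes BiP, the Hsp70 of the ER lumen and the usual readout of the unfolded protein response. It measured 537.7, 466.2, 742.5 and 596.5 CPM in the WT mice, in the order F1, F2, F3, M1, and 702.5, 495.1 and 651.6 CPM in the *LC3b*-/- mice, in the order F1, F3, M, the orders kept throughout. The highest and the lowest value both came from WT mice, and the *LC3b*-/- values lay between them. The means were 586 ± 117 CPM (SD, n = 4) and 616 ± 108 CPM (SD, n = 3). The log2 fold change was 0.07 with a 95% interval of -0.42 to 0.57 (edgeR, adjusted p = 0.859), and its sign changed under 4 of 18 alternative analyses.

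*Hsp90b1* (ENSMUSG00000020048, chromosome 10, 86526073 to 86541446) encodes GRP94, the Hsp90 of the ER, which folds integrins and Toll-like receptors among other clients. It measured 399.5, 415.3, 513.7 and 412.6 CPM in WT and 412.9, 324.9 and 350.0 CPM in *LC3b*-/-. *LC3b*-/- F1 stood at the level of 3 of the WT libraries, the other *LC3b*-/- libraries lay below every WT library, and WT F3 stood above the rest. The log2 fold change was -0.26 with a 95% interval of -0.63 to 0.10 (edgeR, adjusted p = 0.339), and it stayed negative in all 18 alternatives. WT F3 therefore held the highest value of both chaperones and *LC3b*-/- F3 the lowest among the *LC3b*-/- libraries.

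Transcription of both chaperone genes is known to run through the ER stress response element (ERSE), to which ATF6 binds together with NF-Y. The 250 bases before the annotated start of the canonical transcript (GENCODE vM39, GRCm39) are printed for them, 5′ to 3′ on the gene's strand, because they carry the element that links these members to the sensors. Capitals mark matches to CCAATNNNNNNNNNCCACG on either strand. *Hspa5* has 1 match, at 67 to 49 bases before the start, in the window chr2:34661854-34662103 on the plus strand. *Hsp90b1* has 2 matches, at 142 to 124 bases before the start and, on the opposite strand, at 37 to 19 bases, in the window chr10:86541379-86541628 on the minus strand.
Hspa5: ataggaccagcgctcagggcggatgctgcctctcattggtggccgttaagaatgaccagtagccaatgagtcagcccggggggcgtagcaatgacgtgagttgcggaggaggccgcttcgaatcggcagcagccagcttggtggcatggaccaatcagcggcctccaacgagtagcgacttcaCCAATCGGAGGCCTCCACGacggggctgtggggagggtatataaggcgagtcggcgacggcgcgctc
Hsp90b1: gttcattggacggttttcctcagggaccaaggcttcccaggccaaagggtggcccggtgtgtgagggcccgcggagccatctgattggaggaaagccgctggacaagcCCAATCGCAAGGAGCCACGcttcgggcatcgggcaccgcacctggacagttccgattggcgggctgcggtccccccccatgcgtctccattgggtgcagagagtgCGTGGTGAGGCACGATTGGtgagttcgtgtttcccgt
The same search found the element in 25 of 21757 promoters of protein-coding genes (0.115%) and in no other of the 10 genes. A second motif, the core TGACGTGG of the XBP1-bound element, occurred in 0.561% of those promoters and in none of the 10 in this window. A match is a run of letters and not evidence of binding.

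The 3 sensors of the ER membrane were not called, with positive values for *Atf6* and *Ern1* and a negative one for *Eif2ak3*. *Atf6* (ENSMUSG00000026663, chromosome 1, 170532026 to 170696208), the precursor of the transcription factor ATF6, measured 43.2, 41.1, 48.4 and 46.3 CPM in WT and 49.2, 51.4 and 46.8 CPM in *LC3b*-/-. WT F3 overlapped the *LC3b*-/- range, and the 7 values spanned only a 1.25-fold range, the narrowest of the 10 genes. Its log2 fold change was 0.13 with a 95% interval of -0.10 to 0.37 (edgeR, adjusted p = 0.443).

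*Ern1* (ENSMUSG00000020715, chromosome 11, 106283818 to 106378686), which encodes the kinase and endoribonuclease IRE1, measured 33.4, 29.2, 34.3 and 34.1 CPM in WT and 35.8, 38.7 and 37.1 CPM in *LC3b*-/-. All *LC3b*-/- libraries lay above all WT libraries. The fold was 1.14, with a log2 fold change of 0.18 (95% interval -0.06 to 0.43) that did not pass the test (edgeR, adjusted p = 0.319). The two-sided exact permutation test gave p = 0.0286, unadjusted, the smallest p that 4 against 3 libraries allow.

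*Eif2ak3* (ENSMUSG00000031668, chromosome 6, 70821461 to 70882235), which encodes the eIF2 kinase PERK, measured 36.2, 37.1, 52.5 and 40.7 CPM in WT and 26.5, 28.8 and 36 CPM in *LC3b*-/-. All *LC3b*-/- values were below all WT values, although *LC3b*-/- M and WT F1 were almost level. The means were 41.6 ± 7.48 CPM (SD, n = 4) and 30.4 ± 4.97 CPM (SD, n = 3), a fold of 0.731. The log2 fold change was -0.45 ± 0.18 (SE; 95% interval -0.86 to -0.04; edgeR, unadjusted p = 0.0354, adjusted p = 0.18). Without WT F3 and *LC3b*-/- F1, the libraries at either end of its range, it was -0.26 (edgeR, unadjusted p = 0.146). *Eif2ak3* was thus the only sensor with a negative value, and its adjusted p lay between 0.088 and 0.597 over the 18 alternatives.

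Among the transcription factors, *Xbp1* (ENSMUSG00000020484, chromosome 11, 5470606 to 5483027) had the smallest unadjusted p of the 10 genes. Its spliced form encodes the factor that raises ER chaperones, degradation factors and membrane synthesis. It measured 82.2, 71.2, 83.6 and 76.9 CPM in WT and 111, 83.3 and 109 CPM in *LC3b*-/-. *LC3b*-/- F1 and M lay well above the WT range, and *LC3b*-/- F3 stood just inside its upper end. The means were 78.5 ± 5.64 CPM (SD, n = 4) and 101 ± 15.5 CPM (SD, n = 3), a fold of 1.29. The log2 fold change was 0.37 ± 0.13 (SE; 95% interval 0.06 to 0.68; edgeR, unadjusted p = 0.0269, adjusted p = 0.163). It stayed positive in all 18 alternatives, with adjusted p from 0.0818 to 0.559, and was 0.29 without WT F3 and *LC3b*-/- F1 (edgeR, unadjusted p = 0.103). Keratin and plasma cell marker sums were also highest in *LC3b*-/- F1, and the share of *Xbp1* counts that came from such cells was not tested.

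*Atf4* (ENSMUSG00000042406, chromosome 15, 80139372 to 80141745), the factor at the centre of the integrated stress response, is controlled mainly at translation. Its mRNA measured 147, 177, 134 and 122 CPM in WT and 186, 161 and 174 CPM in *LC3b*-/-. WT F2 lay within the *LC3b*-/- range and the other WT libraries below it. The difference was 0.26 on the log2 scale (95% interval -0.09 to 0.62; edgeR, adjusted p = 0.328).

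*Ddit3* (ENSMUSG00000025408, chromosome 10, 127124268 to 127132163) encodes CHOP, which promotes cell death under lasting ER stress. It measured 38.5, 43.3, 38.7 and 43.0 CPM in WT and 42.2, 33.2 and 50.5 CPM in *LC3b*-/-. The *LC3b*-/- libraries held both extremes, with F3 below and M above all 4 WT libraries. The means of 40.8 ± 2.62 CPM (SD, n = 4) and 42.0 ± 8.64 CPM (SD, n = 3) were almost equal, and the log2 fold change of 0.04 (95% interval -0.32 to 0.40; edgeR, adjusted p = 0.9) changed sign under 5 of 18 alternatives. A separate identifier of 105 bases, also named *Ddit3*, covers an upstream reading frame of the same locus. It had 0 to 9 counts per library and was kept apart, and adding it to the gene called none of the 10. The 250 bases before the start of the canonical transcript are printed because they hold the only match among the 10 genes to the core TGATGNAA of the C/EBP-ATF element, the site type through which ATF4 acts. The window is chr10:127126310-127126559 on the plus strand, and capitals mark the match, which reads on the opposite strand at 199 to 192 bases before the start.
Ddit3: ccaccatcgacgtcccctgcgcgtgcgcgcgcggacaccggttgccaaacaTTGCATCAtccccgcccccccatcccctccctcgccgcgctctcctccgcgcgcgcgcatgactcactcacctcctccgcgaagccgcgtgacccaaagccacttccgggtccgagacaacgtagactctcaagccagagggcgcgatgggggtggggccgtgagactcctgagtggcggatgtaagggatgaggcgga
That core occurred in 737 of 21757 promoters (3.39%). *Trib3* and *Asns*, which are also ATF4 targets, had no match in their own windows. Only the window before 1 annotated start per gene was searched. For *Ddit3*, *Atf6*, *Trib3* and *Asns* that window lies wholly inside the annotated gene, and the windows printed for *Hspa5* and *Hsp90b1* lie partly inside it. A site at another start would be missed.

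*Trib3* (ENSMUSG00000032715, chromosome 2, 152179337 to 152191958) encodes a pseudokinase that ATF4 and CHOP induce and that feeds back on ATF4. It was scarce, with 31 to 171 counts per library, and measured 5.01, 4.23, 2.77 and 3.81 CPM in WT and 1.25, 3.13 and 2.51 CPM in *LC3b*-/-. *LC3b*-/- F1 was far below the rest, while WT F3 and *LC3b*-/- F3 crossed over. The means were 3.95 ± 0.931 CPM (SD, n = 4) and 2.30 ± 0.961 CPM (SD, n = 3). The log2 fold change was -0.78 ± 0.38 (SE; 95% interval -1.65 to 0.10; edgeR, adjusted p = 0.249), the most negative value of the 10 genes and one with a wide interval. It was -0.49 without *LC3b*-/- F1.

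*Asns* (ENSMUSG00000029752, chromosome 6, 7671667 to 7728461) encodes asparagine synthetase, a target of ATF4 on amino acid shortage. It measured 3.51, 3.60, 3.22 and 1.5 CPM in WT and 6.16, 4.79 and 3.40 CPM in *LC3b*-/-. *LC3b*-/- F1 and F3 lay above the WT range and *LC3b*-/- M within it, and WT M1 lay far below every other library. This gave a log2 fold change of 0.69 ± 0.37 (SE; 95% interval -0.17 to 1.55; edgeR, adjusted p = 0.289). *Asns* and *Trib3* thus had the largest values of the 10 genes, in opposite directions, and both rest on few counts.

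**Figure D2:**
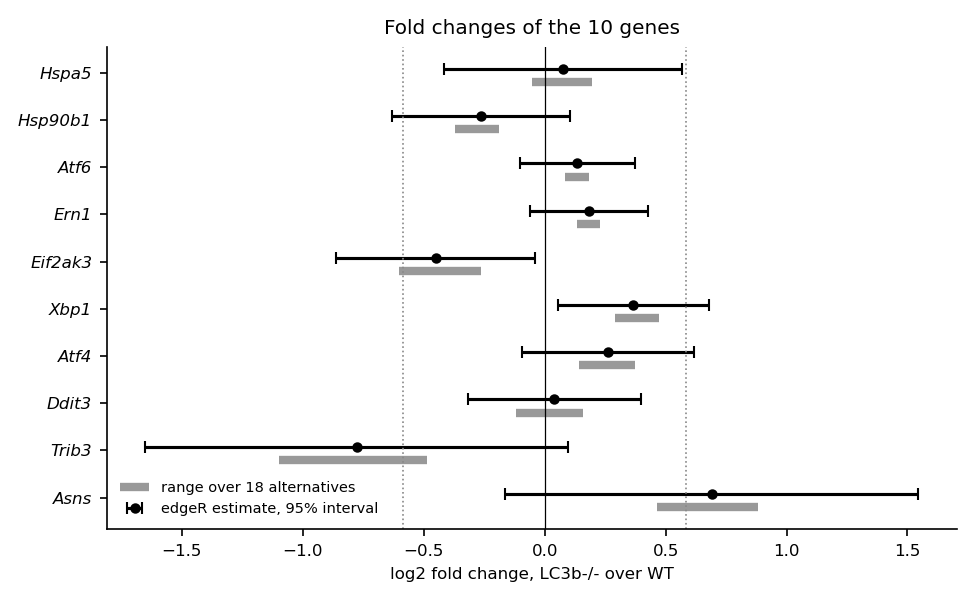
Log2 fold change of LC3b-/- over WT (horizontal axis) for each of the 10 genes, with the edgeR estimate as a point, its 95% interval as a line and the range over 18 alternative analyses as a grey bar. Dotted lines mark a 1.5-fold change either way, and only the intervals of *Eif2ak3* and *Xbp1* leave out 0.

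The precision differed between the genes. For *Hspa5*, *Atf6*, *Ern1* and *Ddit3*, 4 of the 10, the whole 95% interval lay within a 1.5-fold change in either direction. For *Trib3* and *Asns* it reached -1.65 and 1.55 on the log2 scale, the widest of the 10 genes. The sensitivity to sex could be examined only with 1 male per genotype, and the interaction of genotype and sex was not called for any of the 10 genes (edgeR, smallest adjusted p = 0.998).

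Levels were also compared between genes, as CPM per kilobase of the canonical transcript, over the 7 libraries. *Hsp90b1* (115 to 182, median 146) and *Hspa5* (94.1 to 150, median 120) were the most abundant, followed by *Atf4* (70.0 to 107, median 92.6), and neighbours in this order overlapped. *Ddit3* (33.9 to 51.6, median 43.1) and *Xbp1* (36.2 to 56.5, median 42.3) came next, at levels below every value of *Atf4* and not distinct from each other. The sensors followed, with *Eif2ak3* (5.81 to 11.5, median 7.95), *Atf6* (5.46 to 6.81, median 6.20) and *Ern1* (4.17 to 5.52, median 4.89), again overlapping with their neighbours. *Trib3* (0.597 to 2.39, median 1.5) and *Asns* (0.306 to 1.26, median 0.717) were lowest. The order therefore fell into 4 tiers without overlap between neighbouring tiers, with chaperones and *Atf4* on top and the ATF4 targets *Trib3* and *Asns* at the bottom.

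The wider pathway was followed in 9 lists of 125 genes, of which 123 were tested. edgeR called 1 of them, *Tnfrsf10b*, which encodes the death receptor DR5, a CHOP target. It measured 17.2, 15.2, 14.1 and 12.9 CPM in WT and 35.8, 39.6 and 43.1 CPM in *LC3b*-/-, so that every *LC3b*-/- library was more than 2-fold above every WT library. It rose with a log2 fold change of 1.41 ± 0.14 (SE; edgeR, adjusted p = 0.0111; DESeq2, adjusted p = 4.67e-18). The call was lost in some smaller sets of libraries. The adjusted p in edgeR was 0.0675 without WT F2, 0.0556 without WT F3, 0.0797 without *LC3b*-/- F3 and 0.163 without WT F3 and *LC3b*-/- F1 together. The log2 fold changes there were 1.37 to 1.42. With a replicate block, described below, the call was lost as well (log2 fold change 1.43, edgeR, adjusted p = 0.117). That fit called 1 gene in all, and so did the fit without WT F3 and *LC3b*-/- F1. The call was kept in edgeR without WT F1 (adjusted p = 0.0188), WT M1 (0.0357), *LC3b*-/- F1 (0.0406) or *LC3b*-/- M (0.022). Of all genes tested, 0.124% were called higher. DESeq2 called 17 of the 122 genes of these lists with an adjusted p (13.9%, against 11.5% of all genes), 9 higher and 8 lower, and voom called 2, *Tnfrsf10b* and *Ero1b*. Of the 123 genes, 64 had a positive value (52.0%, against 51.2% of all genes), and the median was 0.02.

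Of the 20 genes for folding in the ER, 14 had a negative log2 fold change, where 51.2% of all genes had a positive one. The median of the list was -0.13. edgeR called none of them, with 1 higher and 3 lower at an unadjusted p under 0.05, against 24.1% of all genes. DESeq2 called 1 of the 20, against 11.5% of all genes. The median was -0.03 without *LC3b*-/- F3, -0.06 without WT F3 and -0.28 without *LC3b*-/- F1. *Ero1b*, an oxidase that drives disulfide formation, came closest. It measured 14.4, 15.2, 19.9 and 17.6 CPM in WT and 6.72, 6.95 and 8.71 CPM in *LC3b*-/-, without overlap, with a log2 fold change of -1.17 ± 0.18 (SE; edgeR, adjusted p = 0.058; DESeq2, adjusted p = 5.81e-07). The BiP nucleotide exchange factor *Sil1* was at -0.49 (edgeR, adjusted p = 0.147) and the BiP cofactor *Sdf2l1* at -0.47 (edgeR, adjusted p = 0.185), whereas the disulfide isomerase *Txndc5* was at 0.46 (edgeR, adjusted p = 0.149). In 11 of these 20 genes WT F3 was the highest WT library, and in 18 of them *LC3b*-/- F3 was the lowest *LC3b*-/- library. The same libraries stood at the ends for *Hspa5* and *Hsp90b1*. The low place of *LC3b*-/- F3 was not particular to ER folding. It held in 13 of 16 degradation genes, 11 of 14 sensor and eIF2 genes and 9 of 10 mitochondrial genes of the lists below. In the stress factor list it held in 4 of 14 genes, and in the amino acid list in 6 of 16. The share over all genes was not computed.

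Of the 16 genes of ER-associated degradation, 12 had a negative value and the median was -0.17 (-0.09 without *LC3b*-/- F3). None was called by edgeR, with 1 higher and 4 lower at an unadjusted p under 0.05 (31.2%, against 24.1% of all genes). DESeq2 called 1 in each direction, against 11.5% of all genes. *Selenos* (-0.53; edgeR, adjusted p = 0.101) and *Erlec1* (-0.38; edgeR, adjusted p = 0.105), both parts of the machinery that returns misfolded proteins to the cytosol, lay lower in every *LC3b*-/- library than in any WT library. *Derl3*, a retrotranslocation factor at 0.802 to 4.01 CPM, was at -1.45 (edgeR, adjusted p = 0.142). *Edem1*, a mannosidase-like factor and an XBP1 target, went the other way at 0.70 (edgeR, adjusted p = 0.126), with 13.0 to 22.7 CPM in WT and 24.3 to 31.4 CPM in *LC3b*-/-. Genes of sensor processing and eIF2 control were balanced, with 8 of 14 positive and a median of 0.05. None was called by edgeR or DESeq2, and 1 had an unadjusted p under 0.05 in edgeR (7.14%, against 24.1% of all genes). Their smallest unadjusted p was that of the RNA-activated eIF2 kinase *Eif2ak2* (0.32; edgeR, adjusted p = 0.182), followed by the eIF2B subunit *Eif2b2* (-0.28), the protease *Mbtps2* that cuts ATF6 (-0.39) and the eIF2 phosphatase subunit *Ppp1r15a* (0.55).

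Stress transcription factors and effectors had 12 of 14 positive values and a median of 0.52. At an unadjusted p under 0.05 in edgeR, 6 were higher and 1 lower, 7 of the 14, against 24.1% of all genes. DESeq2 called 4 higher (*Tnfrsf10b*, *Atf3*, *Chac1* and *Gdf15*) and 1 lower (*Atf5*), where it called 11.5% of all genes. In addition to *Tnfrsf10b*, the glutathione-degrading enzyme *Chac1* measured 0.293, 0.414, 0.449 and 0.538 CPM in WT and 1.49, 4.21 and 0.650 CPM in *LC3b*-/-, at a log2 fold change of 2.32 ± 0.64 (SE; edgeR, adjusted p = 0.107). *LC3b*-/- F3 carried most of that difference, and *LC3b*-/- M was close to WT. The secreted factor *Gdf15* was at 1.01 (edgeR, adjusted p = 0.118), with 4.68 to 8.90 CPM in WT and 9.21 to 16.2 CPM in *LC3b*-/-. The factor *Atf5* was at -0.58 (edgeR, adjusted p = 0.104), with 60.2 to 84.8 CPM in WT and 39.8 to 49.8 CPM in *LC3b*-/-. The 10 genes themselves include *Atf4* and its targets *Ddit3*, *Trib3* and *Asns*, which had values of 0.26, 0.04, -0.78 and 0.69.

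Among 16 genes of amino acid synthesis and transport, 8 were positive and 8 negative, with a median of 0.11. edgeR called none, with 2 higher and 5 lower at an unadjusted p under 0.05 (43.8%, against 24.1% of all genes). DESeq2 called 1 higher and 3 lower, against 11.5% of all genes. The neutral amino acid transporter *Slc7a5* measured 310, 328, 373 and 454 CPM in WT and 110, 139 and 239 CPM in *LC3b*-/-, at -1.17 ± 0.29 (SE; edgeR, adjusted p = 0.0967). The glycine transporter *Slc6a9* was at -0.82 (edgeR, adjusted p = 0.0952) and the serine synthesis enzyme *Phgdh* at -0.92 (edgeR, adjusted p = 0.167). All 3 are known ATF4 targets, but the other genes of the list were not sorted by whether they are. The RPE marker sum was also lower in every *LC3b*-/- library than in any WT library, and its part in these values was not tested. The transporter *Slc38a2*, the 1 gene of the list that DESeq2 called higher, went the other way at 1.01 (edgeR, adjusted p = 0.154). The 12 aminoacyl-tRNA synthetases, classical ATF4 targets, were level, with a median of 0.00 and a range of -0.21 to 0.24. None had an unadjusted p under 0.05 in edgeR, against 24.1% of all genes, and DESeq2 called none. The values furthest from 0 were those of *Tars1* (0.24), *Sars1* (-0.21), *Aars1* (-0.18) and *Yars1* (-0.17).

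Chaperones outside the ER were taken for comparison. Of 11 cytosolic heat shock genes 7 were positive, with a median of 0.45. *Dnajb1* was at 1.61 (edgeR, adjusted p = 0.0967), *Hspb1* at 1.29 (edgeR, adjusted p = 0.107) and *Hspa1b* at 1.18 (edgeR, adjusted p = 0.125), with the highest value of each in *LC3b*-/- F1. The abundant *Hsp90aa1* was at -0.75 (edgeR, adjusted p = 0.113), with 1458 to 2059 CPM in WT and 970 to 1343 CPM in *LC3b*-/-. The median of this list was 0.29 without *LC3b*-/- F1 and 0.16 without WT F3 and *LC3b*-/- F1. The 10 mitochondrial chaperones and proteases had a median of -0.16 (-0.08 without *LC3b*-/- F3), and the protease subunit *Clpp* was at -0.59 (edgeR, adjusted p = 0.0906), with its partner *Clpx* at -0.21, *Yme1l1* at -0.25 and *Dnaja3* at -0.19. No gene of either list was called by edgeR. Its unadjusted p was under 0.05 for 5 of the 11 cytosolic and 1 of the 10 mitochondrial genes, against 24.1% of all genes. DESeq2 called 4 of the 11 cytosolic and 1 of the 10 mitochondrial genes, against 11.5% of all genes.

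**Figure D3:**
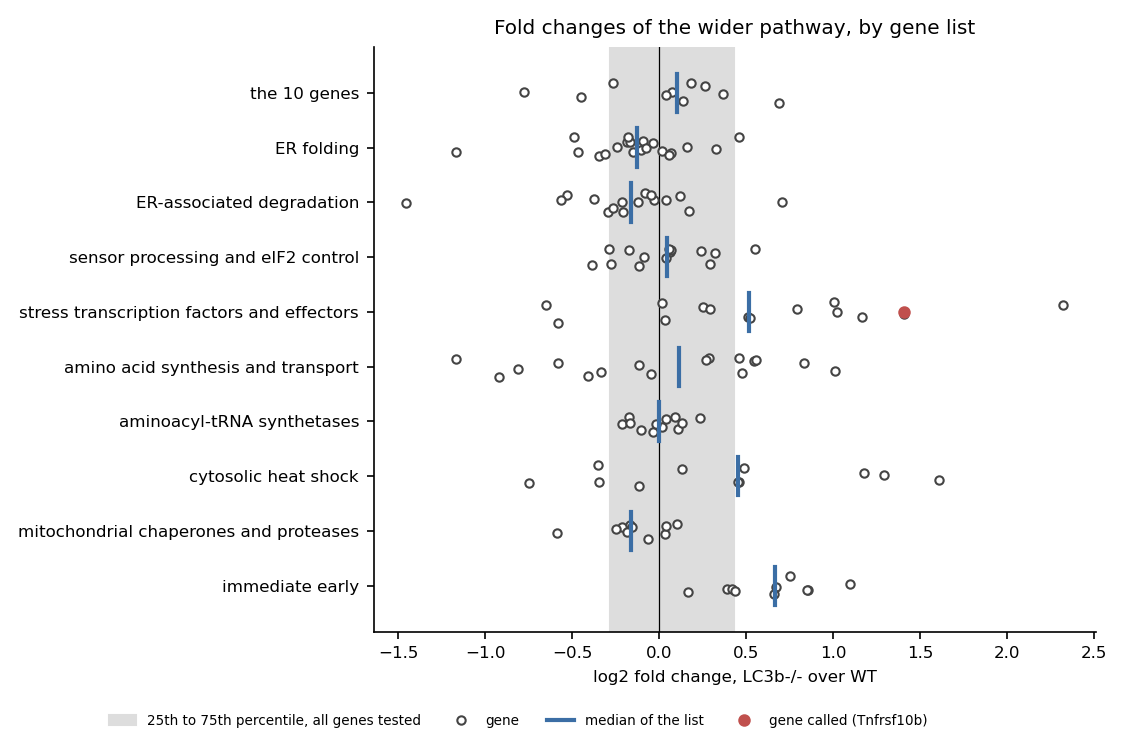
Log2 fold change of LC3b-/- over WT (horizontal axis) of each tested gene in the 10 genes and 9 further lists, with the list's median as a blue line and the 25th to 75th percentile of all genes tested (-0.28 to 0.43) in grey. The medians of stress transcription factors and effectors (0.52), cytosolic heat shock (0.45) and immediate early genes (0.67) lie above the grey band, and the other medians, that of the 10 genes included, lie within it. Without WT F3 the immediate early median was 0.42 and the cytosolic heat shock median 0.34, and the latter was 0.29 without LC3b-/- F1. The stress factor median was 0.39 in females only. The band belongs to the fit of all 7 libraries and was not recomputed for these fits.

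The immediate early genes, which respond within minutes to many stimuli, were all positive (10 of 10, median 0.67). The median was 0.42 without WT F3, 1.05 without WT F1 and 0.41 without WT F3 and *LC3b*-/- F1. Neither edgeR nor DESeq2 called any of them. In edgeR 3 had an unadjusted p under 0.05 (30.0%, against 24.1% of all genes), and 0 did so without WT F3 and *LC3b*-/- F1. *Dusp1* was at 1.10 (edgeR, adjusted p = 0.172), *Ier3* at 0.85, *Btg2* at 0.75 and *Junb* at 0.66. Within WT they were highest in WT F1 in all 10 genes, and their median there, centred on each gene's mean, was 0.50 on the log2 scale against -1.07 in WT F3. The stress factor list had its highest WT median in WT F1 as well (0.08) and its lowest in WT F3 (-0.55). The ER folding list had its highest median in WT F3 (0.26). The median of the 10 genes lay between -0.07 and 0.07 in all 7 libraries, but this median runs over genes with opposite signs, and single genes spanned a 1.25-fold (*Atf6*) to 4.11-fold (*Asns*) range. The part of immediate early expression in the stress factor values was not tested.

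**Figure D4:**
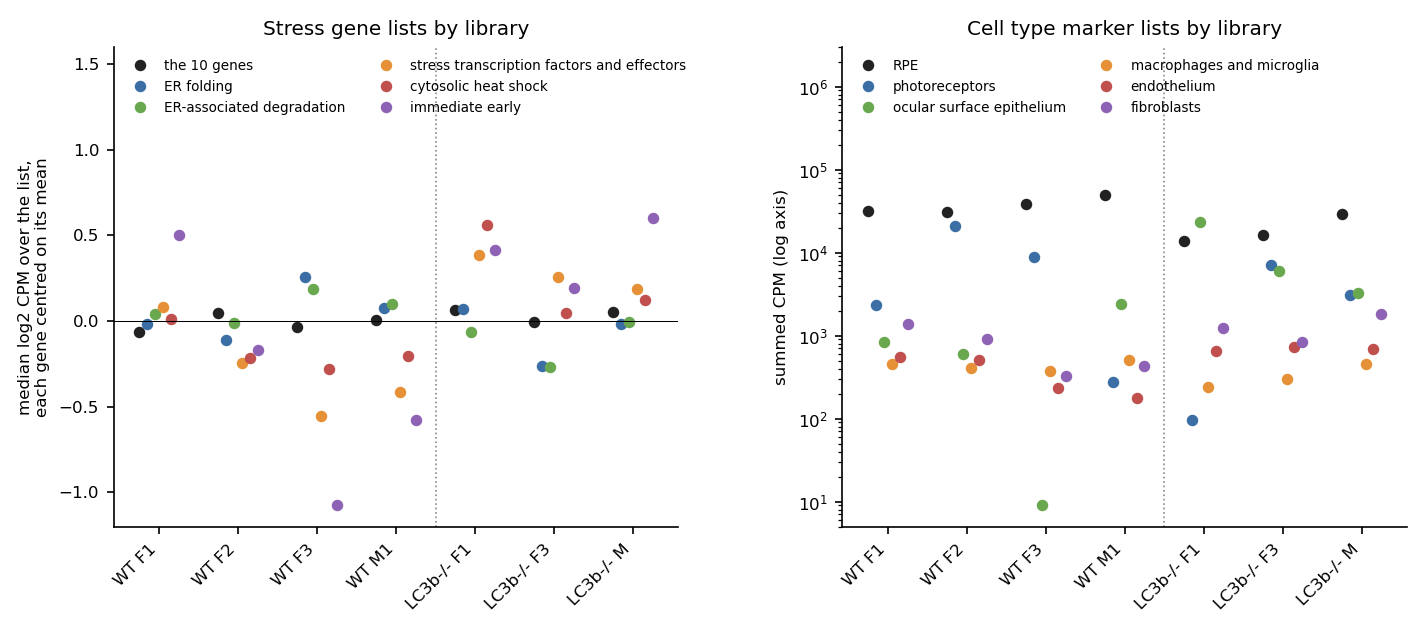
Left, the median over each stress gene list of log2 CPM, centred on each gene's mean, in each library, and right, the summed CPM of 6 cell type marker lists on a log axis, with a dotted line between WT and LC3b-/-. The median of the 10 genes, which go in both directions, lies between -0.07 and 0.07, that of immediate early genes ranges from -1.07 in WT F3 to 0.60 in LC3b-/- M, and keratin-rich ocular surface markers range from 9.14 CPM in WT F3 to 23200 CPM in LC3b-/- F1.

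The genes whose pattern over the 7 libraries lay closest to that of *Hspa5* were sought among 14918 protein-coding genes, by the root mean square difference of centred log2 CPM. They were *Iars1*, an aminoacyl-tRNA synthetase (0.083), *Sec23b*, a coat protein of ER export vesicles (0.098), *Shkbp1* (0.103), *Txnl4a* (0.104) and *Brox* (0.105), where the median over all candidates was 0.393. No listed gene of ER folding was among the nearest 20. Closest to *Trib3* were *Prob1* (0.149), *Aplp1* (0.213), *H2bc9* (0.215), *Fancf* (0.221) and *Dner* (0.23), against a median of 0.678, and none of its nearest 20 was in a pathway list. With 20 of 14918 candidates kept, the absence of a short list does not show whether it moves with a gene. The distances lie below the median because the smallest were selected.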

How the data were processed

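RNA from RPE of 4 WT and 3 *LC3b*-/- mice was sequenced as stranded poly(A) libraries with single reads. The authors counted reads with salmon against GENCODE vM26 (GRCm39) and used tximeta to obtain 1 value per gene. These are estimated counts, deposited as whole numbers without scaling for library size. Trimming and salmon options are not given in the sources used here. All count columns were used. Gene names and places come from GENCODE vM39, also on GRCm39, which matched 51721 of 52740 identifiers.

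Genotypes were compared in edgeR 4.0.16 (R 4.3.3) by its quasi-likelihood test, after filterByExpr and TMM and with no covariate, and p-values were adjusted by Benjamini-Hochberg over 16990 genes. Calls needed an adjusted p below 0.05 and at least a 1.5-fold change, the study's thresholds. CPM use TMM factors, and log2 CPM a prior count of 2. Permutation tests were exact and two-sided (35 possible groupings). Copies of members were sought with BLAST 2.17.0 (at least 95% identity over 100 bases). The code was tested on simulated data. Each mouse is 1 library, and none of the 9 pairs of libraries within a genotype agreed within sampling noise.

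Alternatives were DESeq2 1.42.0, voom of limma 3.58.1 with quality weights, DESeq2's size factors, library size alone, no filter, a minimum of 10 counts in each library, a sex covariate, females alone, a replicate block, and each library left out. The analyses without WT F3 and *LC3b*-/- F1, with copies added and with a sex interaction were chosen after seeing the data. Named were the 10 genes, *Map1lc3b*, called genes, the 4 genes of each list with the smallest unadjusted p, and the 5 nearest patterns to *Hspa5* and *Trib3*. Members and lists were chosen with earlier results of these data known, and no list was tested as a set. Figures were drawn with matplotlib 3.10.9.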

Additional observations from a re-analysis of the deposited data

Results flagged for a closer look

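In 3 of 47 genes examined, 1 of the 4 WT libraries stood apart from the others by Dixon's ratio on log2 CPM (the gap to the nearest library divided by the whole range) above its 95% critical value. About 1 in 20 groups passes that value by chance. *Hsp90b1* was high in WT F3 (ratio 0.845), with 513.7 CPM against 399.5 to 415.3 CPM. *Ern1* was low in WT F2 (ratio 0.834), with 29.2 CPM against 33.4 to 34.3 CPM. *Asns* was low in WT M1 (ratio 0.87), with 1.5 CPM against 3.22 to 3.60 CPM. Without WT F3 the log2 fold change of *Hsp90b1* was -0.19, without WT F2 that of *Ern1* was 0.13, and without WT M1 that of *Asns* was 0.47 (edgeR), and none of these was called.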

How the results depend on the processing

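No member was called under any of the 18 alternatives, and of the 180 member values computed there 171 kept their direction, with a smallest adjusted p of 0.0818. At an unadjusted p under 0.05 there were 0 to 3 members, with 0 without WT M1, without *LC3b*-/- F1 or without both WT F3 and *LC3b*-/- F1. *Hspa5* turned to -0.051 under voom and ran from -0.033 (without *LC3b*-/- F1) to 0.194 with 1 library left out, negative also without WT F2, and *Ddit3* to -0.05 under voom, -0.093 in females only and -0.028 without WT F3 and *LC3b*-/- F1, with -0.118 (without *LC3b*-/- M) to 0.158 with 1 library left out, negative also without WT F3. The median of the members was 0.04 under voom and 0.077 to 0.176 with 1 library left out. The number of pathway genes called was 17 under DESeq2, 2 under voom, 2 without a filter, 4 with sex as a covariate and 0 without WT F3 and *LC3b*-/- F1. With 1 library left out it ran from 0 (WT F2, WT F3 or *LC3b*-/- F3) to 3 (WT F1) and 5 (*LC3b*-/- M). The number called over all genes changed too. It was 18 without WT F2, 16 without WT F3, 11 without *LC3b*-/- F3, 215 without WT F1 and 485 without *LC3b*-/- M. It was 78 without a filter, 197 with sex as a covariate and 1 without WT F3 and *LC3b*-/- F1. The median of sensor processing and eIF2 control was -0.054 to 0.094 with 1 library left out, and that of cytosolic heat shock 0.155 without WT F3 and *LC3b*-/- F1. The causes were not tested. Over all genes, edgeR called 40, DESeq2 1831 and voom 124. The mice share only names (F1 and F3), and the males, M1 in WT and M without a number in *LC3b*-/-, were put together: deviations from the group means correlated at 0.146 for F1, 0.243 for F3 and -0.172 for the males. With these pairs as a replicate block, edgeR called 1 gene in all and 0 pathway genes, *Map1lc3b* was at -3.975 (adjusted p = 0.11) and *Hspa5* at -0.022. *Trib3* and *Asns*, with 31 to 191 counts per library, had the largest standard errors of the 10.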

Other observations

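The ratio of *Hspa5* to *Hsp90b1* within a library, chosen after the values were seen, was 1.35, 1.12, 1.45 and 1.45 in WT and 1.70, 1.52 and 1.86 in *LC3b*-/-, without overlap. The ratio of *Xbp1* to *Eif2ak3*, chosen in the same way from the genes with the smallest p in each direction, was 1.59 to 2.27 in WT and 2.89 to 4.21 in *LC3b*-/-. Neither ratio was tested.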
